A study of Homo sapiens with 6 samples.

Results

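The genes described here are 41 components and targets of the interferon system, out of 58870 genes in the count table. They were taken by symbol from a list that used no expression threshold, and that holds 4 interferon receptor chains, 5 transcription factors, 4 genes of RNA sensing, and 28 genes that are known to be stimulated by interferon or to act in the antiviral response. All 41 were found in the table, where RIG-I carries its older symbol DDX58. RNA-seq of ribosomal RNA-depleted total RNA was compared between 3 libraries of WT HEK-293T cells (genotype Thumpd+/+) and 3 libraries of THUMPD1 KO HEK-293T cells (Thumpd-/-), both grown in DMEM and given no interferon or other treatment by the labels. HEK-293T is an immortalized human embryonic kidney line. The knockout cells were made with CRISPR-Cas9 delivered on a GFP plasmid, followed by sorting to a single-cell clone, so the loss of THUMPD1 and the properties of 1 clone cannot be told apart. THUMPD1 is the adaptor that NAT10 needs to acetylate cytidine in tRNA for Leu and Ser, and the comparison asked which transcripts differ when it is missing. The labels do not say whether replicates were separate cultures, so p values measure the spread between these libraries.

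Cells sense viral RNA through RIG-I and MDA5, which signal through MAVS to the factors IRF3 and IRF7 and so to the production of type I interferon. Interferon binds IFNAR1 and IFNAR2 (type I) or IFNGR1 and IFNGR2 (type II) at the cell surface, and the type I signal reaches DNA through STAT2 and IRF9, which bind the interferon-stimulated response element (ISRE). Many genes with antiviral functions, among them the IFIT, OAS, MX, IFI and IFITM families and the ubiquitin-like protein ISG15, then rise together. A group of these genes is also transcribed at a basal level without interferon.

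The 6 libraries held 32225646 to 44099898 expected counts, so that 3 counts, used here as the detection floor, stood for 0.0680 to 0.0931 counts-per-million values (CPM). THUMPD1 itself, which shows whether the labels hold, had 3258, 3315 and 3013 counts in WT and 395, 529 and 353 counts in THUMPD1 KO (GRCh38 chr16:20702816-20742084, minus strand), with no overlap. This was a log2 fold change of −2.87 (SE 0.085, limma-voom adjusted p = 3.166e-08). Whether the counting used strand is not given in the sources used here, so reads of overlapping genes such as ACSM3 may be part of this count. All 9 markers of HEK-293T cells passed the filter, with summed levels of 1219 to 1269 CPM in WT and 1182 to 1251 CPM in THUMPD1 KO. Of these 9 markers 5 passed the limma-voom test, compared with 26.7% of all tested genes. Their log2 fold changes were −2.75 for NEFM, −0.53 for KRT18, −0.18 for CDH2, 0.31 for NEFL and 0.64 for PAX2. The sum was carried mostly by the more abundant IGF2BP1 and VIM. Leukocyte markers summed to at most 0.748 CPM in any library (0 of 6 passed the filter, and MS4A1 was at 0), fibroblast markers to 10.6 to 18.3 CPM (2 of 4 passed, COL1A2 at 0) and epithelial markers to 5.52 to 9.05 CPM (1 of 4 passed, KRT5 and KRT14 at 0). The fibroblast marker COL1A1 had a log2 fold change of −0.48 (limma-voom adjusted p = 0.016), and LUM and CDH1 did not pass the test.

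In the promoters of these genes the ISRE is the DNA sequence that STAT2 and IRF9 are known to bind. Its core was searched as GAAA and GAAA separated by any 2 bases, on both strands, in RefSeq promoter sequences (GRCh38.p14, 250 bases before to 50 bases after the start), which matched 30 of the 41 genes. IFNAR2, IRF3, IRF7, DHX58, IFIT2, MX2, OAS2, OASL, IFITM2, UBA7 and USP18 had no entry. The core was in 15 of the 30 promoters (50%) and in 1255 of 35116 promoters of all genes (3.57%). The core TTCNNNGAA of the element bound by interferon gamma-activated factors was in 8 of the 30 (26.7%) and in 2689 of all promoters (7.66%). The stretches before the start are shown for IFIT1, IFIT3 and IFIT5, which lie side by side on chromosome 10 and differed in their response, for IFI6, which rose, for ISG15 and OAS3, which did not pass the test, and for BST2, which was close to 0. They are written 5′ to 3′ on the strand of the gene, with each core in capitals, and cores that run into each other share bases. The windows are chr10:89392492-89392544 for IFIT1, chr10:89327826-89327899 for IFIT3, chr10:89414508-89414567 for IFIT5, chr1:27672261-27672363 (minus strand) for IFI6, chr1:1013369-1013414 for ISG15, chr12:112938316-112938355 for OAS3 and chr19:17405730-17405775 (minus strand) for BST2.
IFIT1: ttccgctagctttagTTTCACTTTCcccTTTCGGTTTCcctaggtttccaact
IFIT3: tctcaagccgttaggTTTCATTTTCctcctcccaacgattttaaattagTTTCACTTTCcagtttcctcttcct
IFIT5: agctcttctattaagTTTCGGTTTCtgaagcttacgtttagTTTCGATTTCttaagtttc
IFI6: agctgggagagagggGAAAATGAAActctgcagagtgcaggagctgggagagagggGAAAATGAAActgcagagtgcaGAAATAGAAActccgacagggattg
ISG15: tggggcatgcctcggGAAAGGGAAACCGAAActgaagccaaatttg
OAS3: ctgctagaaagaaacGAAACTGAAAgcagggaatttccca
BST2: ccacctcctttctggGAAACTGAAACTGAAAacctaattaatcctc

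The first core began 116 bases before the start in IFIT1, 156 in IFIT3, 45 in IFIT5, 156 in IFI6, 113 in ISG15, 143 in OAS3 and 130 in BST2. IFI6 held 3 cores in its window, OAS3 held 1 and the others held 2. Of the 15 genes with a core, 6 passed the filter of at least 1 CPM in at least 3 of 6 libraries. Of these, IFIT5 and IFI6 rose, IFIT1 fell, and ISG20, OAS3 and IFI27 did not pass the test. Over all tested genes 26.7% were called. Of the 8 genes with the core TTCNNNGAA, 5 passed the filter, and IFI35, which was lower, was the only one called. Whether a core goes with a change was not tested. A match is a description of the sequence and not evidence of binding. The list was made of interferon genes, so the larger share with a core describes the list and not these libraries.

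Single interferon genes moved in both directions in THUMPD1 KO, while most of the tested members were within 0.1 of 0 on the log2 scale. Of the 41 genes, 23 passed the filter of at least 1 CPM in at least 3 of 6 libraries, and 8 of these (34.8%) had a limma-voom p under 0.05 after Benjamini-Hochberg adjustment over all 15088 genes tested, of which 26.7% were called. There were 4 genes higher in THUMPD1 KO (13.7% of all tested genes were called higher), which were IFI6, IFITM2, IFIT5 and IFNAR1. There were 4 genes lower (13% of all tested genes were called lower), which were IFI35, IFIT1, USP18 and TRIM25. Only IFI35 changed at least 2-fold. It was also the only tested member with no library at 1 CPM or more in one of the genotypes, having 3 such libraries in WT and 0 in THUMPD1 KO, so that it passed the filter through the genotype in which it was higher. The median log2 fold change was 0.02 over the 23 tested members and 0.02 over all tested genes, and its median size was 0.09 over the members and 0.13 over all tested genes. WT and THUMPD1 KO values did not overlap for 10 of the 23 members, compared with 42.2% of all tested genes. The summed level of the 41 genes was 1151 to 1191 CPM in WT and 1141 to 1185 CPM in THUMPD1 KO.

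**Figure D1:**
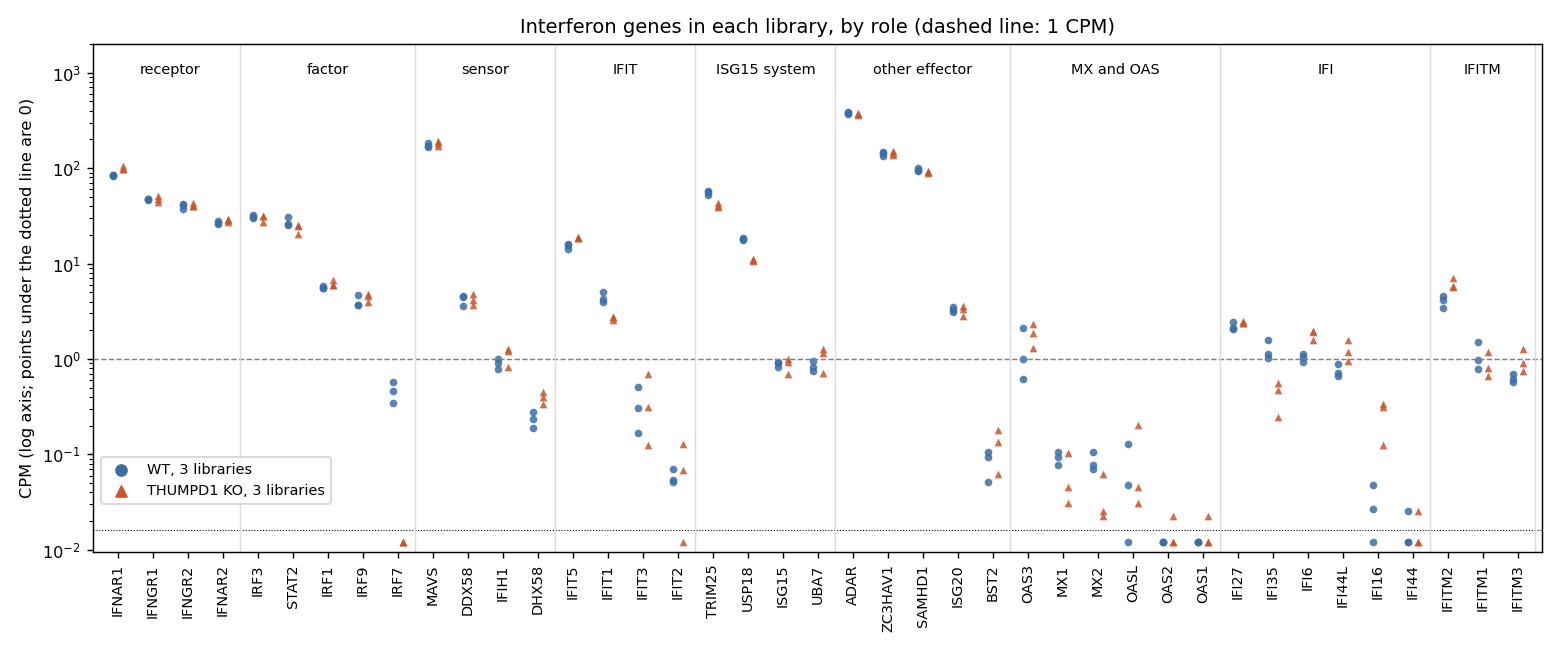
Level of each of the 41 interferon genes in each library in CPM on a log axis, grouped by role. Circles are the 3 WT and triangles the 3 THUMPD1 KO libraries, the dashed line is 1 CPM and points under the dotted line are at 0; receptors, IRF3, STAT2, MAVS, ADAR, ZC3HAV1 and SAMHD1 lie far above the line, and most MX and OAS genes lie far below it.

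Levels between genes were compared per length, as CPM divided by the kilobases of merged exons (RPKM). In WT the highest was ADAR, the enzyme that converts adenosine to inosine in double-stranded RNA, at 30.8 RPKM ± 0.921 (SD, n = 3). ZC3HAV1, which binds CG-rich viral RNA, followed at 16.8 ± 0.775, IFNGR2 at 15.9 ± 0.900, MAVS at 14.8 ± 0.795 and IFNGR1 at 13.1 ± 0.167, and for neighbours in this order from ZC3HAV1 to MAVS the ranges of mean ± SD overlapped. The classical stimulated genes were far lower. ISG15 was at 1.03 RPKM ± 0.066, IFIT1 at 0.957 ± 0.123, OAS3 at 0.0684 ± 0.042 and MX1 at 0.00517 ± 0.00086.

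Of the receptor chains, 1 of 4 changed. IFNAR1 (chr21:33324387-33359864), the chain of the type I receptor that TYK2 binds, was at 82.1, 85.7 and 84.8 CPM in the WT libraries and at 104.9, 98.98 and 97.4 CPM in the THUMPD1 KO libraries. All 3 THUMPD1 KO libraries lay above all 3 WT libraries. The mean rose from 84.2 CPM ± 1.90 to 100.4 CPM ± 3.96 (SD, n = 3), a log2 fold change of 0.25 (SE 0.045, limma-voom adjusted p = 0.00243). In bulk RNA a change in the share of cells that express a gene and a change in RNA per cell cannot be told apart. For the 59 tested genes within 5 Mb of IFNAR1 the median was 0.13, and 78.0% of them lay below IFNAR1. The part of the surrounding region in this result was not tested. The other receptor chains had values close to WT. IFNAR2, the second chain of the same receptor, had 26.9 CPM ± 1.17 in WT and 28.5 ± 0.841 in THUMPD1 KO. IFNGR1 had 46.6 ± 0.591 and 47.7 ± 3.25, and IFNGR2 had 40.3 ± 2.28 and 41.1 ± 1.76 CPM. Their log2 fold changes of 0.09, 0.03 and 0.02 had 95% intervals that together ran from −0.11 to 0.22.

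None of the 4 tested transcription factors passed the test in the limma-voom fit without a block. STAT2, the partner of IRF9 in the type I signal, was at 30.4, 25.4 and 25.8 CPM in WT and at 25.0, 20.3 and 25.2 CPM in THUMPD1 KO. The lowest WT library lay just above the highest THUMPD1 KO library, with a gap smaller than the spread within each genotype. It differed by −0.22 on the log2 scale (SE 0.087, limma-voom adjusted p = 0.0856). A block for replicate number, which gave 9 called members and called 35.1% of all tested genes, put STAT2 past the threshold at −0.21 (adjusted p = 0.0234). DESeq2 also called it (adjusted p = 0.0494). IRF3, the factor activated by MAVS signalling, had 31.1 CPM ± 0.875 in WT and 30.2 ± 2.25 in THUMPD1 KO. IRF9 had 4.03 ± 0.557 and 4.41 ± 0.449, and IRF1, a factor that type II interferon induces, had 5.61 ± 0.157 and 6.18 ± 0.454 CPM. The log2 fold changes of these 3 factors lay between −0.04 and 0.09.

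IRF7, the factor that amplifies the type I response, was below the filter but was detected in 1 genotype only. It had 24, 18 and 13 counts in WT and 0, 0 and 0 counts in THUMPD1 KO. No THUMPD1 KO library held a single count, at depths where 3 counts stood for at most 0.0931 CPM. Against 3 counts per library in THUMPD1 KO, the level was at least 5.78-fold lower than in WT. In a fit of all 31730 genes with any count, of which 10.1% were called, IRF7 (chr11:612553-615983, minus strand) passed the limma-voom test with an adjusted p of 1.6e-04, and it did so in all 8 alternatives run on it. The median log2 fold change of the 60 tested genes within 5 Mb was 0.07. No other gene of the annotation overlaps IRF7.

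The RNA sensors and their adaptor showed no difference that passed the test. MAVS, the mitochondrial adaptor, had 174.4 CPM ± 9.35 in WT and 182.2 ± 10.7 in THUMPD1 KO (log2 fold change 0.06, 95% interval −0.06 to 0.18). RIG-I (DDX58), the sensor of 5′-triphosphate RNA, had 4.21 ± 0.543 and 4.21 ± 0.589 CPM. MDA5 (IFIH1), which senses long double-stranded RNA, had 33, 36 and 37 counts in WT and 50, 36 and 39 in THUMPD1 KO. DHX58 (LGP2), a sensor-like regulator of both, had 10, 11 and 7 counts in WT and 13, 20 and 13 in THUMPD1 KO. The IFIH1 libraries overlapped between genotypes and the DHX58 libraries did not, and in the fit without the filter their adjusted p values were 0.803 and 0.287.

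The IFIT genes, whose products bind viral RNA ends and translation factors, lie next to each other on chromosome 10 and did not move together. Both tested members changed, in opposite directions. IFIT1 (chr10:89392546-89406487), which binds RNA caps that lack 2′-O-methylation, was at 3.94, 4.26 and 5.04 CPM in WT and at 2.73, 2.56 and 2.76 CPM in THUMPD1 KO. Every THUMPD1 KO library lay below every WT library. The mean fell from 4.42 CPM ± 0.567 to 2.68 CPM ± 0.107 (SD, n = 3), which is 60.8% of WT, with a log2 fold change of −0.77 (SE 0.151, limma-voom adjusted p = 0.00412). IFIT5 (chr10:89414568-89421605), which also binds 5′-triphosphate RNA, was at 14.1, 16.0 and 15.7 CPM in WT and at 18.4, 18.4 and 18.9 CPM in THUMPD1 KO. All THUMPD1 KO libraries were higher than all WT libraries. This was a log2 fold change of 0.30 (SE 0.079, limma-voom adjusted p = 0.0158), and the adjusted p was 0.061 without THUMPD1 KO replicate 2 and 0.0611 without THUMPD1 KO replicate 3. The 47 tested genes within 5 Mb had a median of 0.01, and none of them lay below IFIT1. As the printed windows show, the promoters of both genes hold 2 ISRE cores before the start. IFIT3 had 7, 12 and 19 counts in WT and 27, 14 and 4 in THUMPD1 KO, a wider spread within each genotype than between them. IFIT2 had at most 5 counts in any library. IFIT1, IFIT2 and IFIT3 overlap LIPA on the opposite strand.

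In the ISG15 system, UBA7 activates ISG15, TRIM25 can act as a ligase, and USP18 removes ISG15 and also restrains IFNAR2 signalling. Both tested members of this system, USP18 and TRIM25, fell. HERC5 and UBE2L6 of the further list below, which also act in ISG15 conjugation, did not pass the test. HERC5 was at 24.0 CPM ± 1.99 in WT and 23.9 ± 1.78 in THUMPD1 KO (limma-voom adjusted p = 0.996). UBE2L6 was below the filter (limma-voom adjusted p = 0.859 without it). USP18 (chr22:18150118-18177397) was at 18.4, 17.9 and 17.6 CPM in WT and at 11.2, 10.8 and 10.6 CPM in THUMPD1 KO. The groups were far apart relative to their spread. The mean fell from 17.98 CPM ± 0.387 to 10.9 CPM ± 0.294 (SD, n = 3), 60.4% of WT, with a log2 fold change of −0.72 (SE 0.068, limma-voom adjusted p = 4.5e-05). Its near copy USP41 can share reads with it, and the sum of both genes in THUMPD1 KO was 60.3% of WT. The surrounding genes were lower as well. The 87 tested genes within 5 Mb had a median of −0.34, 94.3% of them were below 0, and 9.2% were lower than USP18. The part of this region in the USP18 result was not tested. TRIM25 (chr17:56836387-56914080, minus strand), which also ubiquitinates RIG-I, was at 58.3, 52.1 and 56.5 CPM in WT and at 39.9, 39.1 and 42.98 CPM in THUMPD1 KO. No THUMPD1 KO library reached the lowest WT library. This was a log2 fold change of −0.46 (SE 0.057, limma-voom adjusted p = 2.7e-04), whereas its 61 tested neighbours had a median of 0.02. The TRIM25 locus overlaps C17orf67 on the same strand and DGKE on the opposite strand. ISG15 itself was below the filter, with 35, 36 and 35 counts in WT and 39, 31 and 30 in THUMPD1 KO. UBA7 had 35, 37 and 28 counts in WT and 28, 51 and 41 in THUMPD1 KO. The genotypes overlapped for both, and neither passed the test without the filter (adjusted p = 0.628 and 0.785).

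The MX GTPases and the OAS enzymes, which make the activator of RNase L, were nearly silent in both genotypes. OAS1 and OAS2 had 0 counts in each WT library, which allows a level of up to 0.0712 to 0.0805 CPM, and 1 count each in 1 THUMPD1 KO library. MX1, MX2 and OASL had at most 8 counts in any library. OAS3, the largest of the OAS enzymes, was the exception, with 88, 39 and 23 counts in WT and 91, 83 and 42 in THUMPD1 KO. The WT libraries alone spanned most of the range. The log2 fold change was 0.57 with a wide 95% interval of −0.15 to 1.29 (limma-voom adjusted p = 0.22), and without WT replicate 1, the highest WT library, it was 0.96 (adjusted p = 0.0306). With sample quality weights it was 0.80 (adjusted p = 0.0335).

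Of the 6 IFI genes, 1 rose and 1 fell among the 3 tested. IFI35 (chr17:43006740-43014456), which binds the interferon-induced protein NMI, had 66, 40 and 42 counts in WT and 22, 21 and 8 in THUMPD1 KO. Every THUMPD1 KO library lay below every WT library, and THUMPD1 KO replicate 3 was the lowest. The mean fell from 1.24 CPM ± 0.289 to 0.430 CPM ± 0.164 (SD, n = 3), 34.7% of WT, with a log2 fold change of −1.50 (SE 0.242, limma-voom adjusted p = 0.00127). Its 193 tested neighbours had a median of 0.01. IFI6 (chr1:27666064-27672212, minus strand), a mitochondrial and endoplasmic reticulum protein that inhibits apoptosis, had 48, 41 and 35 counts in WT and 77, 69 and 62 in THUMPD1 KO. All THUMPD1 KO libraries were higher than all WT libraries. The mean rose from 1.04 CPM ± 0.10 to 1.82 CPM ± 0.226 (SD, n = 3), with a log2 fold change of 0.66 (SE 0.168, limma-voom adjusted p = 0.0148), but the adjusted p was 0.059 without WT replicate 3. IFI6 overlaps LINC02574 on its own strand. IFI27, one of the genes most strongly induced by type I interferon, had 2.20 CPM ± 0.213 in WT and 2.43 ± 0.076 in THUMPD1 KO, a log2 fold change of 0.07 that did not pass the test.

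Below the filter, IFI16, a nuclear DNA sensor, had 2, 0 and 1 counts in WT and 13, 14 and 4 in THUMPD1 KO. Every THUMPD1 KO library held more counts than any WT library. The ratio of summed counts, scaled by library size, was 10.6 (95% exact interval 3.32 to 54.4, covering counting error only). The limma-voom adjusted p without the filter was 0.0176, but it was 0.0702 with the replicate block and above the threshold in 4 of the 6 fits that left out a library. It was 0.0955 when WT replicate 2 was left out and 0.104 when WT replicate 3 was, and 0.0878 and 0.108 when THUMPD1 KO replicate 1 or 2 was. IFI44L had 30, 35 and 25 counts in WT and 62, 52 and 31 in THUMPD1 KO, a log2 fold change of 0.58 (limma-voom adjusted p = 0.196, edgeR adjusted p = 0.0368). Its WT and THUMPD1 KO levels did not overlap as CPM. IFI44 had at most 1 count in any library.

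The IFITM proteins block the entry of enveloped viruses at membranes, and 1 of the 3 genes was tested. IFITM2 (chr11:303655-309397) was at 4.62, 4.19 and 3.45 CPM in WT and at 7.03, 5.67 and 5.88 CPM in THUMPD1 KO. The lowest THUMPD1 KO library was above the highest WT library. The mean rose from 4.09 CPM ± 0.591 to 6.19 CPM ± 0.728 (SD, n = 3), with a log2 fold change of 0.55 (SE 0.119, limma-voom adjusted p = 0.00679). IFITM1 was at 1.505, 0.787 and 0.966 CPM in WT and at 1.18, 0.658 and 0.814 CPM in THUMPD1 KO. IFITM3 was at 0.692, 0.613 and 0.574 CPM in WT and at 0.901, 0.747 and 1.28 CPM in THUMPD1 KO. The genotypes overlapped for IFITM1 and not for IFITM3, and neither passed the test without the filter (adjusted p = 0.414 and 0.346). The 3 genes are close copies that share reads, and the counting split these reads between them by estimation, so their separate levels are uncertain.

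None of the 4 tested genes among the other antiviral effectors passed the test, and ADAR, ZC3HAV1 and SAMHD1 were abundant in both genotypes. ADAR had 377.2 CPM ± 11.3 in WT and 370.6 ± 7.50 in THUMPD1 KO, a log2 fold change of −0.05 (95% interval −0.15 to 0.04). SAMHD1, which hydrolyses deoxynucleotides, had 96.1 ± 4.33 and 91.3 ± 2.20 CPM, with a log2 fold change of −0.08 (limma-voom adjusted p = 0.222). Only with sample quality weights did SAMHD1 pass the test (log2 fold change −0.12, adjusted p = 0.0365). ZC3HAV1 had 142.3 ± 6.56 and 143.3 ± 5.93 CPM, and ISG20, an exonuclease for RNA, had 3.30 ± 0.201 and 3.25 ± 0.404 CPM. BST2 (tetherin), which holds budding virions at the cell surface, had at most 7 counts in any library. Of the 15 tested members that did not pass the test, 13 had a log2 fold change within 0.1 of 0, the exceptions being STAT2 and OAS3. Of the 18 members below the filter, 8 had under 10 counts in every library, and 2 passed the test without the filter.

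**Figure D2:**
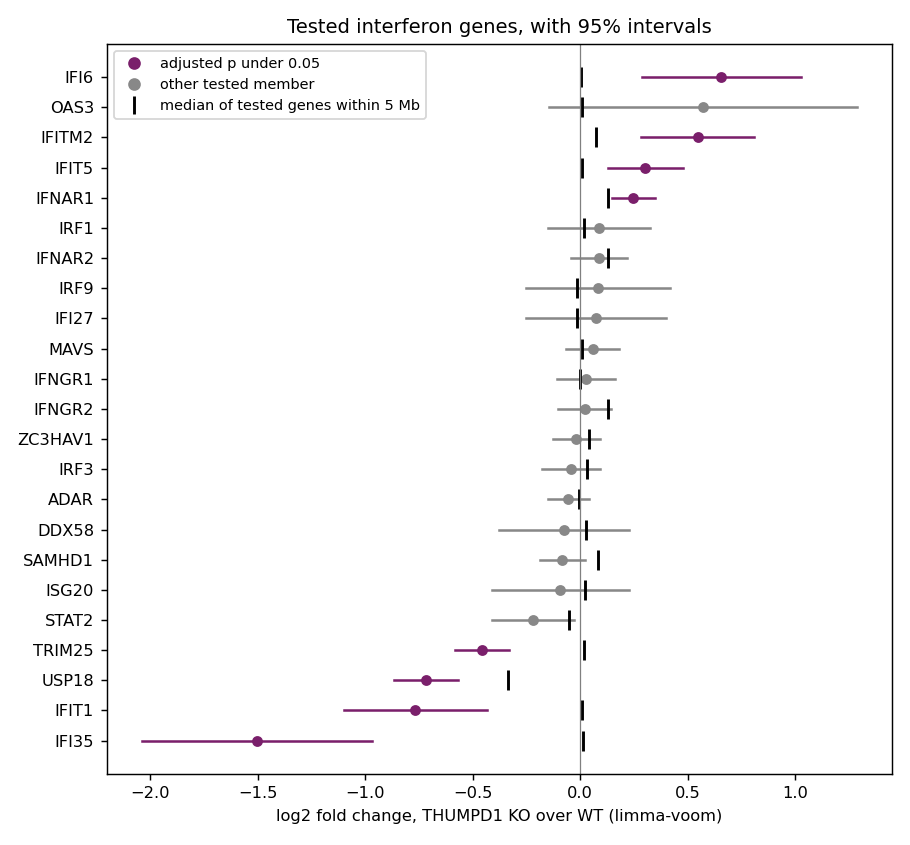
Log2 fold change (THUMPD1 KO over WT, limma-voom) with 95% intervals for the 23 tested members, in order of size. Purple points have an adjusted p under 0.05 and black ticks are the median of the tested genes within 5 Mb; most members lie close to 0 and to their neighbours, IFI35 is lowest at −1.50, and the neighbours of USP18 have a median of −0.34.

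A further list of 84 genes of the interferon pathway, none of them among the 41, was examined in the same fit. Of these, 54 passed the filter and 16 (29.6%) passed the test, 7 higher and 9 lower, against 26.7% of all tested genes. The median log2 fold change was −0.04. The ligand genes IFNA1, IFNB1, IFNG, IFNK and IFNL1 had 0 counts in every library, which allows at most 0.0931 CPM. The 12 genes with the smallest adjusted p fell into a few kinds. The E3 ligase DTX3L (6.35 CPM ± 0.433 in WT and 11.3 ± 0.659 in THUMPD1 KO) and its partner PARP9 (3.37 ± 0.247 and 6.36 ± 0.280), which share a locus on chromosome 3, rose with log2 fold changes of 0.80 and 0.87 (adjusted p = 7.6e-05 and 2.6e-04). TRIM5, a restriction factor of retroviral capsids, rose by 0.99 on the log2 scale (2.19 CPM ± 0.462 and 4.54 ± 0.433, adjusted p = 6.1e-04), and TRIM14, an adaptor of MAVS, was at −0.21 (adjusted p = 0.0291). The cytidine deaminase APOBEC3C had the lowest value, at −1.11 (30.5 CPM ± 2.74 and 14.3 ± 2.61, adjusted p = 3.6e-05), and lies on chromosome 22, where its 125 tested neighbours had a median of −0.32.

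TAP2, TAP1 and TAPBP, which load peptides on class I molecules for antigen presentation, were lower. TAP2, a chain of the peptide transporter, went from 49.8 CPM ± 2.71 to 37.6 ± 0.406 (log2 fold change −0.41, adjusted p = 2.9e-04). Its partner TAP1 was at −0.25 (adjusted p = 0.0349) and tapasin (TAPBP), which tethers class I molecules to the transporter, at −0.48 (adjusted p = 0.00541). The class I heavy chain HLA-B differed from these in direction, with 52.0 CPM ± 2.41 in WT and 62.4 ± 1.58 in THUMPD1 KO (log2 fold change 0.26, adjusted p = 0.00224). HLA genes share reads with each other, which makes their separate counts uncertain. The secreted glycoprotein LGALS3BP (−0.85, adjusted p = 0.00265) and LY6E, a surface protein that restricts coronavirus entry (−0.22, adjusted p = 0.0118), were lower, and the phosphatase PTPN2, which dephosphorylates JAK kinases, was higher (0.23, adjusted p = 0.0147). The remaining 4 that passed the test were IL10RB and SP110, which were higher, and STING1 and JAK1, which were lower. STING1 and JAK1 did not pass by edgeR (adjusted p = 0.0827 and 0.0736) or DESeq2 (adjusted p = 0.124 and 0.0658). IL10RB passed by DESeq2 (adjusted p = 0.031) and not by edgeR (adjusted p = 0.0592), and SP110 passed by both. The genotypes overlapped for STING1 and IL10RB.

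**Figure D3:**
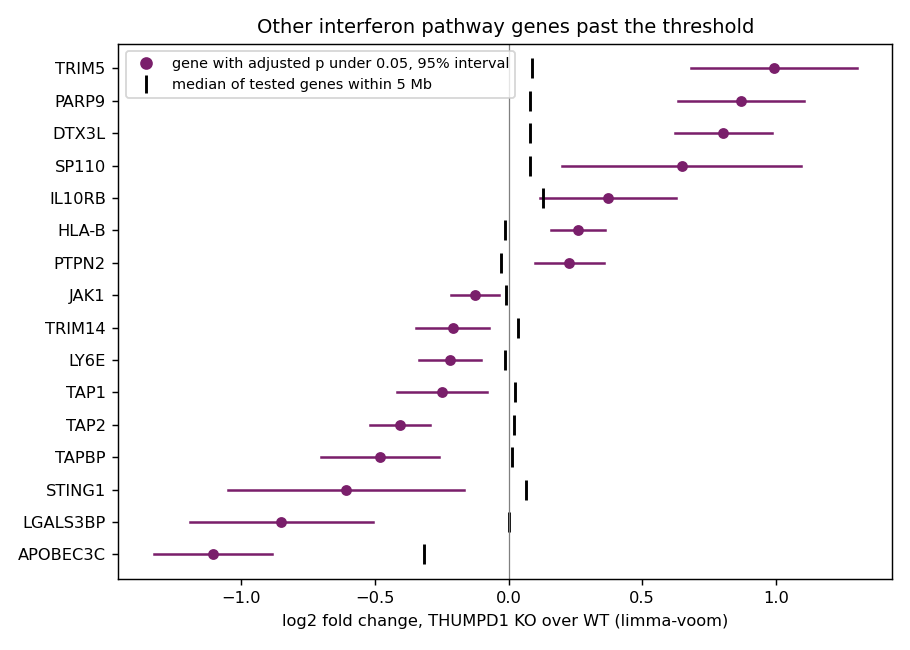
Log2 fold change (THUMPD1 KO over WT, limma-voom) with 95% intervals for the 16 of 84 other interferon pathway genes that passed the test. Black ticks are the median of the tested genes within 5 Mb; TRIM5, PARP9 and DTX3L lie highest and APOBEC3C lowest, the latter beside neighbours with a median of −0.32.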

How the data were processed

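RNA-seq was analysed for 3 WT and 3 THUMPD1 KO HEK-293T libraries, grouped and numbered by the sample labels. The authors made stranded total RNA libraries, aligned paired reads to GRCh38 (hg38) with STAR and deposited RSEM expected counts per gene, not scaled between libraries. The methods name GENCODE 46. Names, positions and exon lengths were taken here from GENCODE 44, which held 99.4% of the gene IDs. The 41 members, the list of 84 further genes and the marker lists were chosen with earlier results of these data known.

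The filter, normalization and test followed the methods of the study. Genes were kept if 3 or more of the 6 libraries reached 1 CPM, the number of libraries being chosen here. After quantile normalization, limma-voom (limma 3.58.1, R 4.3.3) was fitted with genotype alone. The two-sided p values were Benjamini-Hochberg adjusted over the 15088 genes kept, with a threshold of 0.05. CPM were computed from the expected counts and their library total, and ± values are SD. The fit was tested on simulated data with independent libraries, no replicate effect and a fixed spread for all genes. This covers the code and not the spread of these libraries. Alternatives were TMM or plain library sizes, a stricter CPM filter or none, the replicate block, quality weights per sample, each library left out, and edgeR 4.0.16 and DESeq2 1.42.0 on rounded counts. Fits without the filter for members below it (with the block, edgeR and leave-one-out) were added after seeing the data.

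Values in every library were given for members past the threshold and for untested members with at least 30 summed counts in either genotype, and other members by role. STAT2, OAS3 and the interferon ligands were chosen after their values were seen. Of the further list, at most 12 called genes were given with values, and HERC5 and UBE2L6 were added after their values were seen. The deviations of same-numbered libraries from their genotype means correlated at 0.287, 0.257 and 0.162 over 11717 genes, and those of different numbers at −0.276 to 0.113. On this ground libraries with the same number were treated as pairs in the replicate block, a meaning that the labels do not state. The main fit did not pair them. At 32225646 to 44099898 counts per library, 1 CPM stood for 32.2 to 44.1 counts.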

Additional observations from a re-analysis of the deposited data

How the results depend on the processing

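Across the alternatives, the number of called members lay between 6 (at least 1 CPM in all 6 libraries, where IFI6 and IFI35 were no longer tested) and 10 (no CPM filter, or sample quality weights), beside 8 as reported. IFNAR1, IFIT1, IFITM2, TRIM25 and USP18 were called in all 14 alternatives and IFI35 in all 13 that could test it. Of the further pathway genes, between 10 (no CPM filter) and 21 (sample quality weights) were called, beside 16 as reported. Leaving out 1 library gave 11 to 13 called genes. The cause of these differences was not tested. With the replicate block, 9 members (4 higher, 5 lower) and 18 further genes were called, STAT2 being the member added, and no other call among the tested members changed. THUMPD1 was at −2.87 with the block, and leaving out 1 library moved it between −2.96 and −2.79. Of 399 results of single genes under alternatives, 366 kept direction and side of the threshold, 8 lost and 6 gained the call, and 19 changed sign, all in genes not called in either fit. DDX58 was at 0.0091 with sample quality weights, IFIT3 at 0.077 with the replicate block and 0.21 by edgeR, and ZC3HAV1 at 0.011 with library sizes alone. Leaving out 1 library gave log2 fold changes from −0.036 to 0.088 for IFNGR1, −0.024 to 0.057 for IFNGR2, −0.073 to 0.013 for IRF3, −0.030 to 0.22 for IRF9, −0.17 to 0.0052 for DDX58, −0.054 to 0.33 for IFIH1, −0.56 to 0.52 for IFIT3, −0.17 to 0.032 for ISG20, −0.0089 to 0.18 for IFI27 and −0.055 to 0.011 for ZC3HAV1. The cause of these changes was not tested. Depth limits the 8 members with under 10 counts in every library, none of which passed the test without the filter.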

Other observations

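IFNE, the interferon expressed by reproductive tract epithelium, was the only listed interferon ligand with counts, and it was chosen after its values were seen. It had 22, 20 and 29 counts in WT and 10, 11 and 14 counts in THUMPD1 KO. IFNE overlaps MIR31HG on its own strand, so reads of MIR31HG may be part of this count. The genotypes did not overlap, and in the fit without the filter the log2 fold change was −1.07 (limma-voom adjusted p = 0.078), which does not pass the threshold. The 21 tested genes within 5 Mb of it had a median log2 fold change of −0.03.

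Stimulated genes of the further list that were near or at 0 included RSAD2 (viperin), with 1 count in 1 WT library, and XAF1, with 0 counts in every library. The immunoproteasome subunits PSMB8 and PSMB9 had at most 5 and 10 counts in any library. These genes were also chosen after their values were seen, and their low counts in both genotypes resemble those of MX1, MX2, OAS1 and OAS2.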
